A study of Mus musculus with 4 samples.

Results

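The receptors through which retinoids act on transcription, and the coregulators those receptors recruit, were followed in NIH-3T3 cells, an established line of mouse fibroblasts. The set holds 9 genes: the retinoic acid receptors Rara, Rarb and Rarg, the retinoid X receptors Rxra and Rxrb, the corepressors Ncor1 and Nrip1, and the coactivators Ncoa1 and Ncoa3. Every gene probe whose accession mapped to one of these symbols was taken, which gave 9 of 20895 named genes and 17 of the 55681 probes on the array. All 17 had a value on every array, and 15 of them were well above background on every array, as were 27174 probes in all. Each of the 17 was printed as 1 spot per array.

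One-colour Agilent arrays were hybridised with total RNA from 4 cultures, with 1 array per group. The untreated culture carries the treatment label None, and the other cultures received AR7, CA39 or CA77 at 20 µM, with collection after 24 h. These small molecules were made to activate chaperone-mediated autophagy (CMA), a pathway that delivers single proteins to lysosomes and that signalling through RARα restrains, and CA39 and CA77 were developed from AR7. All cultures were wild type, grown per the labels to confluency in medium with 10% fetal bovine serum, and the compounds were dissolved in DMSO, so that vehicle and compound cannot be told apart in a difference shared by all 3 treated arrays. Data on the RAR antagonist BMS614 were not used here.

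A retinoic acid receptor works as a heterodimer with a retinoid X receptor on paired recognition sites in DNA. Without an agonist the heterodimer holds corepressors such as NCoR1 and their histone deacetylase complex, and an agonist exchanges them for coactivators of the p160 family such as the products of Ncoa1 and Ncoa3, whereas RIP140, the product of Nrip1, is a corepressor that binds receptors in the presence of agonist. Rarb is itself a classical target of this switch, through a retinoic acid response element close to its start.

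That element is shown because Rarb RNA is widely read as a measure of RAR activity. The promoter of Rarb in the RefSeq annotation (assembly GRCm38.p6, chr14:16575427-16575726, minus strand, 250 bases before to 50 after the gene start) holds the direct repeat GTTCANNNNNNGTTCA, printed in capitals, at chr14:16575513-16575528, ending 36 bases before the start. The promoter of Cyp26a1, which encodes a retinoic acid hydroxylase, holds the repeat on the opposite strand, and the 56 bases around it (chr19:37697756-37697811, plus strand) are given for comparison.

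Rarb promoter: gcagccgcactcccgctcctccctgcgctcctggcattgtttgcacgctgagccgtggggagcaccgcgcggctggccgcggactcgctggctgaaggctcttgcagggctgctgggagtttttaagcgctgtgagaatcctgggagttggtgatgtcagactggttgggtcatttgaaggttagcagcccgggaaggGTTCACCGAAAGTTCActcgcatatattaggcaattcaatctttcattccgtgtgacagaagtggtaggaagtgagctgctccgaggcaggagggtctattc

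Cyp26a1 window: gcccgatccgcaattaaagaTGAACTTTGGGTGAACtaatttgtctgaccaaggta

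Both strands of all 32851 promoters in that table were searched for this repeat, and 25 of them (0.0761%) held it. Among the 16 promoters listed for 8 of the 9 genes, it was found in Rarb alone (1 of 16). The same repeat with the consensus letters, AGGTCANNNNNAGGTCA, was found in 3 promoters of the table (0.00913%) and in 0 of the 16. A match describes the letters and not the binding of a receptor.

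Levels are normalised log2 intensities and are compared between arrays for 1 probe at a time, never between probes. With 1 array per group no test could be run and no p-value is given. The measure of error is a tolerance of 0.16 (log2, 1.12-fold). It comes from those of 399 probes printed 10 times that were well above background on the array in question. It covers spot noise within an array, not the spread between cultures. It is the typical SD of a difference between 2 single spots, so unchanged probes can also pass it through spot noise. The share of all probes well above background ran from 52.2% (CA39) to 69.7% (untreated). Position on the slide, where the untreated array occupied row 1 and the others row 2, cannot be told apart from treatment, and CA77 alone was read in scan 2. Of 12 fibroblast markers, 10 were well above background on every array, as were 2 of 4 epithelial markers (Krt5 and Krt14), 1 of 3 leukocyte markers (Cd3e) and 3 of 4 endothelial markers, while Cdh1 was on none. Epcam, at 7.53, and the fibroblast marker Pdgfrb, at 8.78, were well above background on CA39 only. Several fibroblast markers differed on the CA39 array and not in 1 direction: the proteoglycans Dcn (11.46 against 17.15 on the untreated array) and Lum (10.39 against 14.60) were lower, and Fn1 (17.98 against 16.52), Pdgfra (12.59 against 11.41) and Col1a1 (16.65 against 15.60) higher. On the AR7 and CA77 arrays Col1a1 (14.55 and 14.77) and Col3a1 (7.78 and 7.89 against 8.52) were lower than on the untreated array. Dcn (17.61 and 17.46) was higher on both, and Lum was lower on AR7 (13.98) and higher on CA77 (14.91). The part of these marker differences in the values below was not tested.

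No probe measured on all 4 arrays differed from the untreated array by 2-fold. The count was 0 of 15 with AR7, where 2.37% of all probes well above background on either array passed, and 0 of 15 with CA39, where 4.65% passed. With CA77, 1 of 16 probes passed, a Rarb probe described below, where 2.55% of all probes did. At 1.5-fold, the 15 probes again gave 0 with each compound, against 3.11% of the 27174 probes for AR7, 9.87% for CA39 and 3.77% for CA77. Each of the 15 probes was thus within 1.5-fold of the untreated array.

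**Figure D1:**
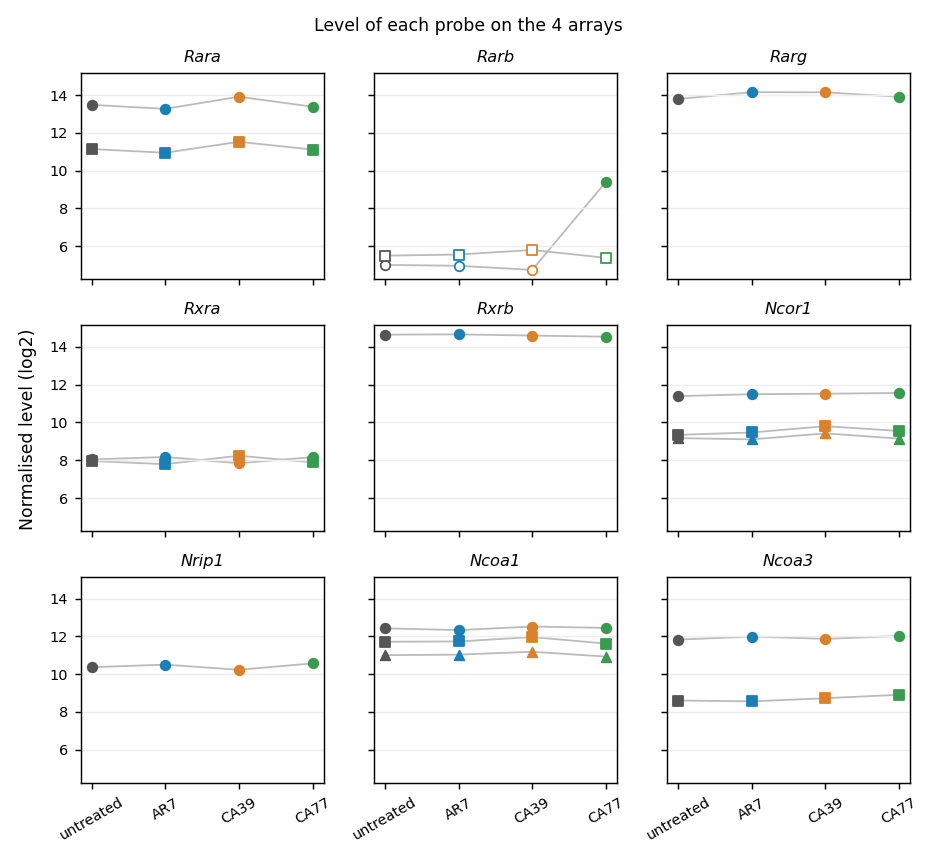
Normalised log2 level (y axis) of every probe of the 9 genes on the untreated, AR7, CA39 and CA77 arrays (x axis), with 1 panel per gene, 1 array per point and lines that only join the points of a probe. Filled points were well above background and open points were not. Both Rara probes are highest on CA39, and 1 Rarb probe stands at 9.40 on CA77 only.

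Rara encodes RARα, the receptor against which the CMA compounds were designed. Its brighter probe read 13.48 in untreated cells, 13.27 after AR7, 13.91 after CA39 and 13.38 after CA77. Its dimmer probe read 11.14, 10.95, 11.52 and 11.11 in the same order. Both probes thus placed CA39 highest, then untreated, CA77 and AR7. Against the untreated array, CA39 was higher by 0.43 and 0.38 on the 2 probes, ratios of 1.35 and 1.30, and AR7 was lower, at -0.21 and -0.19, ratios of 0.864 and 0.874. CA77 differed from untreated by -0.10 and -0.03, within the tolerance. The background-subtracted spot intensity of the brighter probe, before any scaling, kept CA39 on top, with 11646 scanner units in untreated cells, 10769 after AR7, 15908 after CA39 and 9723 after CA77.

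A gene with 2 probes allows the size to be read against probe agreement. Among the 3271 symbols with 2 probes measured on all arrays, both probes were past the tolerance and higher with CA39 in 15.5%, and both were past it and lower with AR7 in 8.16%. Over all processing alternatives the CA39 difference of Rara ranged from 0.39 to 0.53 on the brighter probe and from 0.29 to 0.57 on the dimmer one, always past the tolerance. The AR7 difference kept its sign, from -0.22 to -0.13 and from -0.19 to -0.12, but was not past the tolerance under every alternative.

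Rarg encodes RARγ, the retinoic acid receptor best known from skin and skeleton. Its single probe read 13.79 in untreated cells, 14.15 after AR7, 14.14 after CA39 and 13.91 after CA77. AR7 and CA39 were thus nearly level with each other and both above untreated, by 0.36 and 0.35, ratios of 1.28 and 1.27, while CA77 stood 0.11 above, within the tolerance. The spots around this probe, up to 5 rows and columns away, also had positive median differences, 0.10 for AR7, 0.11 for CA39 and 0.06 for CA77. Subtracting those medians left 0.25, 0.24 and 0.05, so the AR7 and CA39 differences remained past the tolerance. Rara and Rarg, the RARs with a measured level on all arrays, were therefore unlike each other with AR7, where Rara was lower and Rarg higher.

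Rarb encodes RARβ. Its first probe was not well above background on untreated, AR7 or CA39, where it read 5.01, 4.96 and 4.75, and was so on CA77 alone, where it read 9.40. The spot intensity minus background was 1.64 scanner units in untreated cells, -14.8 after AR7, -19.4 after CA39 and 693 after CA77. Set against the floor of detectable signal on the untreated array, log2 5.88, this is a difference of at least 3.52, or at least 11.5-fold higher on CA77 in this processing. Against AR7 the bound was at least 5.99-fold and against CA39 at least 5.77-fold. The bound depends on the processing: the alternatives gave 2.74, with a background offset of 50, to 5.16 for the difference from untreated, and 4.39 with no floor.

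The other Rarb probe did not follow. It read 5.50 in untreated cells, 5.56 after AR7, 5.80 after CA39 and 5.39 after CA77, and none of the arrays had it well above background, so that its values have no order. Both probes cite the same Rarb transcript.

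The position of the first probe on the array was examined, as its reading rests on 1 spot. Of 113 spots up to 5 rows and columns away, 5 were at least 2-fold higher on CA77 than on untreated by the values as measured, with no floor, and all 5 lay within 2 rows and 1 column of Rarb, limits set after their positions were seen. The 5 belong to other genes. Net intensity in untreated cells and after CA77 was 11.7 and 499 for Ntn3, 27.7 and 737 for Lpcat4, 24.1 and 370.0 for Chrna7, 53.8 and 164 for Mcf2l, and 17.9 and 81.0 for Krtap6-5. The untreated spots of Ntn3, Chrna7 and Krtap6-5 were not well above background, so their differences have no exact size. The scanner software marked 2 of the 5, those of Chrna7 and Krtap6-5, and did not mark the Rarb spot. Higher readings on CA77 were thus found at spots beside Rarb and not at the second Rarb probe, and the part of array position in the Rarb value was not tested. Cyp26a1, whose promoter holds the repeat too, read between 5.97 and 6.08 on the 4 arrays and was well above background in untreated cells only.

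**Figure D2:**
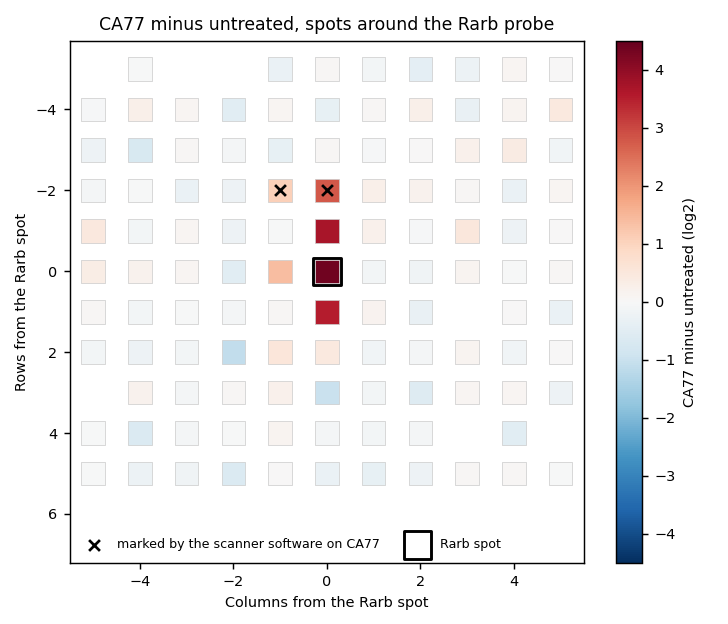
Map of the log2 difference CA77 minus untreated for the spots around the Rarb probe, by columns (x axis) and rows (y axis) from that spot, with the colour giving the difference. Positions without a point are control spots or unprinted. The 5 spots at least 2-fold higher lie within 2 rows and 1 column of Rarb.

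Rxra encodes RXRα, a partner shared by many nuclear receptors. One probe read 8.04 in untreated cells, 8.17 after AR7, 7.84 after CA39 and 8.16 after CA77. The other read 7.96, 7.79, 8.24 and 7.89. Their differences from untreated had opposite signs with every compound: with CA39 the first stood at -0.20 and the second at 0.28, with AR7 they stood at 0.13 and -0.17, and with CA77 at 0.12 and -0.07. The CA39 gap between them, 0.48, lay above the 90th percentile of such gaps over the 3271 symbols with 2 probes, which was 0.44. No direction can be given for Rxra.

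Rxrb encodes RXRβ and had the smallest range of the 15 probes. Its probe read 14.64 in untreated cells, 14.66 after AR7, 14.59 after CA39 and 14.54 after CA77, a range of 0.12 that is within the tolerance.

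Ncor1 encodes the scaffold of the corepressor complex that silences unliganded RARs. Its brightest probe read 11.39 in untreated cells, 11.49 after AR7, 11.52 after CA39 and 11.56 after CA77. The second read 9.34, 9.47, 9.80 and 9.54, and the third 9.17, 9.10, 9.42 and 9.14. The probes cite different transcripts of the gene, and all 3 were higher with CA39, by 0.13, 0.46 and 0.25, the first of these within the tolerance. With CA77 the first 2 probes were past the tolerance at 0.17 and 0.20 and the third was at -0.03. The first lay at 0.16, just within the tolerance, when arrays were scaled to the 75th percentile. With AR7 none of the 3 passed it, at 0.10, 0.13 and -0.07, but subtracting the neighbouring spots put the first 2 past it, at 0.22 and 0.17.

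Nrip1 encodes RIP140 and is also known as a retinoid-inducible gene. Its single probe read 10.37 in untreated cells, 10.51 after AR7, 10.23 after CA39 and 10.57 after CA77. CA77 was above untreated by 0.20, past the tolerance under every alternative, whereas AR7 at 0.14 and CA39 at -0.14 were within it. The AR7 difference was past it under some alternatives, up to 0.20. The sign of the CA39 difference was not kept, with a range of -0.14 to 0.05 over the alternatives. Nrip1 was the one probe of the corepressors that was lowest on CA39.

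Ncoa1 encodes SRC-1, a p160 coactivator with many receptor partners. Its brightest probe read 12.43 in untreated cells, 12.33 after AR7, 12.52 after CA39 and 12.45 after CA77, all within the tolerance of untreated. The second read 11.72, 11.73, 11.96 and 11.62, and the third 11.01, 11.03, 11.19 and 10.93. With CA39 the second and the third were higher by 0.25 and 0.18, past the tolerance, but the spots around the second had a median difference of 0.28 there, and subtracting it left -0.030. The same step left 0.15 for the third, so that neither was then past the tolerance. With AR7 and CA77 none of the 3 differed by more than the tolerance. Subtracting the neighbouring spots, however, left the second at -0.18 with CA77, past it.

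Ncoa3 encodes SRC-3, a p160 coactivator of RARs and steroid receptors. Its brighter probe read 11.83 in untreated cells, 11.99 after AR7, 11.87 after CA39 and 12.02 after CA77. The dimmer probe read 8.61, 8.56, 8.73 and 8.91. With CA77 both were higher, by 0.19 and 0.30, where 8.35% of the 3271 symbols had both probes past the tolerance and higher. The difference of the brighter probe lay within the tolerance under some alternatives, down to 0.12, and that of the dimmer probe under none. With CA39 they were at 0.04 and 0.12, within the tolerance, and with AR7 at 0.16, just past the tolerance, and -0.05, so that the probes differed in sign. These readings depended on the processing. The AR7 differences ranged from 0.03 to 0.19 and from -0.05 to 0.08, so neither the call nor the difference in sign was kept. Those of CA39 ranged from -0.05 to 0.21 and from 0.11 to 0.32, past the tolerance under some alternatives.

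**Figure D3:**
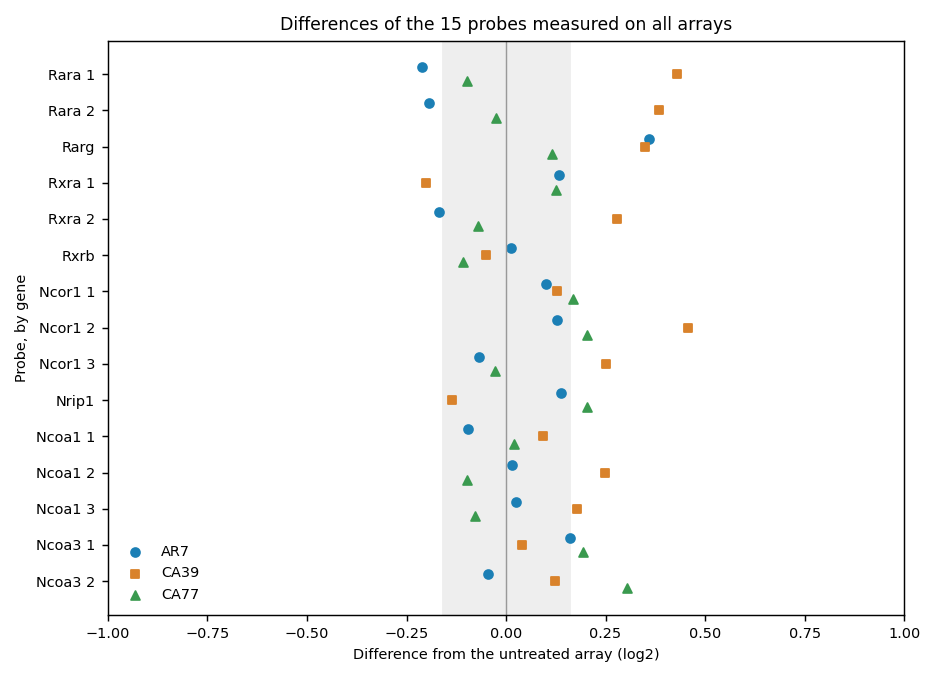
Log2 difference from the untreated array (x axis) with AR7, CA39 and CA77 for the 15 probes measured on all arrays (y axis, by gene), with the tolerance of 0.16 either side of 0 shaded. Points of CA39 lie furthest to the right for Rara and for 2 probes of Ncor1, and no point reaches 1.5-fold.

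Counted over the 15 probes, 5 differed from untreated by more than the tolerance with AR7, 2 higher and 3 lower, where 37.9% of all probes did, 16.0% as higher and 21.9% as lower. With CA39 it was 9 of 15, 8 higher and 1 lower, where 57.3% of all probes passed, 23.5% as higher and 33.8% as lower. With CA77 it was 5 of 15, all higher, where 44.8% of all probes passed, 18.5% as higher and 26.3% as lower. The second Rxra probe was past the tolerance and lower with CA77, at -0.25, when arrays were scaled to the 75th percentile. It was so too with the quantile-normalised processed signal, at -0.17. The totals thus lay near the background for each compound, and with both CA39 and CA77 more of the 15 were higher than lower, where over all probes more were lower. The median difference of the 15 probes was 0.18 with CA39 and 0.02 with each of AR7 and CA77, beside -0.04 (CA39), -0.02 (AR7) and -0.02 (CA77) over all 27174 probes. The order of these medians depends on how a gene is summarised. Over the brightest probe of each of the 8 genes they were 0.07 (CA39), 0.12 (AR7) and 0.12 (CA77), and over the mean of each gene's probes 0.13, 0.03 and 0.07. Probes of 1 gene share their RNA, and the 15 probes stand for 8 genes.

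By role, the 3 RAR probes measured on all arrays were all higher with CA39, between 0.35 and 0.43, where 23.5% of all probes were past the tolerance and higher. With AR7, 1 was higher and 2 were lower, where 16.0% and 21.9% of all probes were, and with CA77 none was past the tolerance. The corepressor probes had 2 of 4 higher with CA39, against 23.5% of all probes, and 3 of 4 higher with CA77, against 18.5%, of which 1 Ncor1 probe depended on the scaling, with 0 of 4 past the tolerance with AR7. After subtraction of neighbouring spots, 3 of 4 were past it with AR7 too. Of the 5 coactivator probes, 2 were higher with CA39, 2 with CA77 and 1 with AR7, and none was lower, where 33.8% of all probes were lower with CA39 and 26.3% with CA77. Subtracting the neighbouring spots left the AR7 call, on Ncoa3, at 0.03, within the tolerance. The same step put the second Ncoa1 probe past it and lower with CA77, at -0.18. Each of these counts rests on 5 probes or fewer. The 3 RXR probes had medians of 0.01 with AR7, -0.05 with CA39 and -0.07 with CA77, with 1 lower past the tolerance on AR7, 1 higher and 1 lower on CA39 and 0 on CA77. Under some alternatives the first Rxra probe reached 0.17 on CA77 and the second -0.25, both past the tolerance.

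The related compounds were compared at the same dose and time in all 3 pairs. These comparisons have 1 culture per compound, so no interval of a difference can be given, and a difference within the tolerance does not show that compounds act alike. The largest difference among the 15 probes lay between CA39 and AR7, where 1 probe of 15, the brighter Rara probe, passed 1.5-fold at 0.64, a ratio of 1.56, where 11.6% of all probes passed, and the dimmer Rara probe stood at 0.58, a ratio of 1.49. Both probes of a symbol were past the tolerance and higher on CA39 than on AR7 in 17.6% of the 3271 symbols. Past the tolerance were 10 of 15, 8 higher and 2 lower on CA39, where 58.1% of all probes were, 26.0% as higher and 32.1% as lower. The 2 lower were Nrip1, at -0.27, and the first Rxra probe, at -0.33.

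CA39 set against CA77 gave 11 of 15 past the tolerance, 8 higher and 3 lower on CA39, where 55.4% of all probes passed, 26.5% as higher and 28.9% as lower, and 0 past 1.5-fold, where 10.6% passed. Rara was higher on CA39 by 0.53 and 0.41, with both probes past the tolerance and higher in 15.6% of the 3271 symbols. Rarg was higher by 0.24, though by 0.13 when arrays were scaled to the 75th percentile, and the second and the third Ncor1 probe by 0.25 and 0.28. Nrip1, at -0.34, and the dimmer Ncoa3 probe, at -0.18, were lower on CA39. CA77 set against AR7 gave 3 of 15 past the tolerance, where 36.1% of all probes passed, 16.5% as higher and 19.6% as lower, and 0 past 1.5-fold, where 2.13% passed. The 3 were Rarg, lower on CA77 at -0.24, the dimmer Rara probe, higher at 0.17, and the dimmer Ncoa3 probe, higher at 0.35. The median difference of the 15 probes was 0.17 for CA39 minus AR7, 0.24 for CA39 minus CA77 and 0.07 for CA77 minus AR7, beside -0.03, -0.01 and -0.01 over all probes.

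The wider machinery was described through the brightest probe of each gene. Of 27 genes listed as coregulator partners, among them the retinoid X receptor Rxrg, 26 were well above background on every array. Rxrg stood at -0.02 (AR7), -0.26 (CA39) and -0.42 (CA77). None of the 27 was past 2-fold with any compound, where 1.85% of all symbols were for AR7, 5.53% for CA39 and 2.03% for CA77. Past the tolerance with AR7 were 5 higher and 4 lower, where 16.3% and 18.5% of all symbols were. With CA39 it was 7 higher and 8 lower, where 26.3% and 30.3% were, and with CA77 it was 4 higher and 7 lower, where 18.9% and 21.6% were. Their medians, -0.02, -0.02 and 0.03, lay close to those of all symbols, -0.01, -0.02 and -0.01.

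Within that list, the complex around NCoR1 holds the deacetylase Hdac3, the WD40 proteins Tbl1x and Tbl1xr1, and Gps2. With CA39, Tbl1xr1 was higher by 0.56 and by 0.55 on its second probe, and Gps2 by 0.28 and 0.33. With AR7 the Tbl1xr1 probes stood apart, at 0.05 and -0.39, and with CA77 at 0.17 and -0.13. With CA77, Gps2 was lower on both probes, at -0.19 and -0.16, and Tbl1x was lower at -0.24, while Hdac3 stood at 0.11. With AR7, Gps2 was at -0.08 and -0.06, Tbl1x at 0.06 and Hdac3 at -0.11, within the tolerance. Hdac3 and Tbl1x stood at 0.12 and -0.10 with CA39, within the tolerance. Trim24, a cofactor that binds agonist-bound nuclear receptors, was higher on both of its probes with AR7, by 0.25 and 0.24, and with CA39, by 0.71 and 0.69, and stood at 0.25 and 0.11 with CA77. The third p160 coactivator, Ncoa2, was at -0.19 for AR7, 0.18 for CA39 and -0.15 for CA77. The genes of this paragraph were picked from the list for their place in the complex, apart from Trim24 and Ncoa2, which were picked after their values were seen.

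Of 14 genes known to respond to retinoic acid through RARs, 9 were well above background on every array and 4 on none (Cyp26c1, Hoxb1, Rarres1 and Lrat). Stra6, the membrane receptor that takes up retinol, was the one gene past 2-fold, with CA39, where 5.53% of all symbols were. It read 13.67 in untreated cells, 13.63 after AR7, 12.45 after CA39 and 13.25 after CA77, and was thus lower with CA39, at -1.22, and with CA77, at -0.42. Tgm2, a transglutaminase induced by retinoic acid in many cells, was lower on both probes with all 3 compounds. Its probes stood at -0.37 and -0.56 on CA39, at -0.49 and -0.49 on CA77, and at -0.21 and -0.31 on AR7. Tgm2 and Cyp26b1 were chosen with their values in view. The hydroxylase Cyp26b1 was at 0.05 (AR7), 0.10 (CA39) and -0.22 (CA77). Over the 9 measured genes the median with AR7 was 0.02, with 1 higher and 1 lower past the tolerance, where 16.3% and 18.5% of all symbols were. It was -0.05 with CA39, with 2 higher and 3 lower, where 26.3% and 30.3% of all symbols were. On CA77 the median was -0.11, with 1 higher and 3 lower, where 18.9% and 21.6% of all symbols were. The 3 comparisons share the untreated array.

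**Figure D4:**
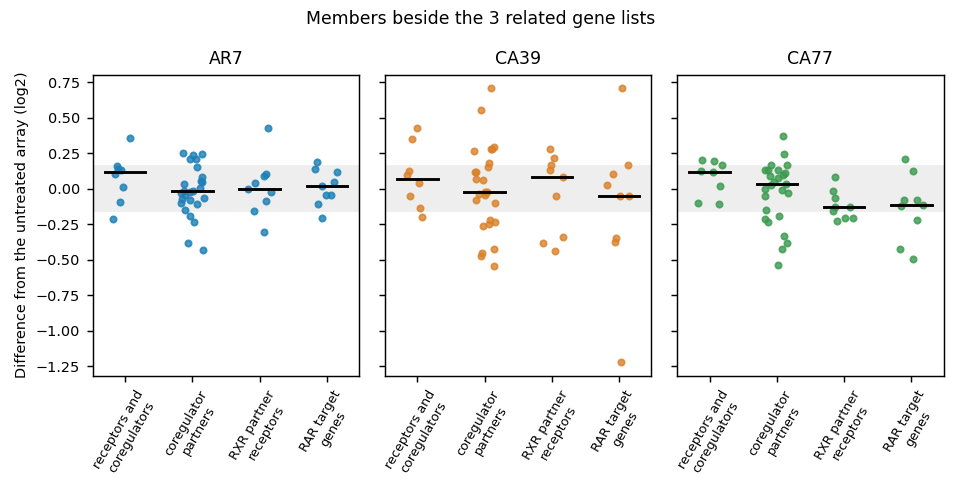
Log2 difference from the untreated array (y axis) with each compound (panels) for the brightest probe of the 8 receptor and coregulator genes and of the genes of 3 related lists, all measured on every array, with 1 point per gene, a bar at the median and the tolerance of 0.16 shaded. Stra6 is the lowest point with CA39, at -1.22, and the medians of the 8 genes are 0.12 (AR7), 0.07 (CA39) and 0.12 (CA77).

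The profile over the arrays was compared with those of 13018 other symbols, by the distance between the 3 differences from untreated, for the 3 genes with the widest range on their brightest probe among probes measured on all arrays, which leaves out Rarb. Nearest to Rara were Prune2, Pdzd4 and Bmt2, each at a distance of 0.05 (log2), and 138 symbols lay within the tolerance. Nearest to Rarg were Tenm2 at 0.04 and Plekhb1 and Dnajc22 at 0.06, with 66 within the tolerance. Nearest to Nrip1 were Ints5 at 0.01, Gna15 at 0.02 and Cd3g at 0.03, with 563 within it. Each profile holds 4 arrays and thus 3 differences, so many genes share it.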

How the data were processed

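RNA of 4 cultures was labelled with Cy3, hybridised to 1 slide and read with Feature Extraction 10.7.3.1. The authors deposited linear spot intensities with local backgrounds and quality marks. The deposited series table held the background-subtracted intensity at all 62976 spots of each array (within a relative difference of 1e-04), and the study's methods name oligo and RMA, whose values were not used here.

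Median intensities were corrected with normexp (limma 3.58.1, R 4.3.3, no offset) over all spots, controls were left out, and arrays were quantile normalised and put on the log2 scale. Spots marked non-uniform or population outliers were dropped, 142 for untreated, 328 for AR7, 328 for CA39 and 321 for CA77, and spots were averaged per probe. A probe was well above background when over 50% of its spots were. A dimmer value was raised to the 1st percentile of detected signal on its array, and a difference whose higher side was dim was set to 0. The tolerance is the square root of 2 times the median over arrays of the median SD of repeat spots, 0.12, 0.12, 0.09 and 0.10 (log2) for untreated, AR7, CA39 and CA77. The number of arrays limits the precision. Accessions were matched without versions to RefSeq and Ensembl identifiers of GRCm38.p6, which named 27512 of 55378 probes. The array design cites an earlier build, so no gene coordinates beyond the RefSeq promoters are given. Counts and differences were computed with scripts (Python 3.11.15, pandas 2.3.3, numpy 2.4.6) tested on simulated data.

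The genes and lists were chosen with earlier results of these data known. All 17 probes of the 9 genes are reported. Genes of the related lists are named past 2-fold or for their place in the NCoR1 complex, and Rxrg is named as a retinoid X receptor. Others are said to be chosen with their values known, and the nearest profiles are the 3 closest symbols. Some genes of the related lists are not reported here by name. Alternatives were the other intensity scales, an offset of 50, scaling to the 75th percentile, other floors and filters, and, chosen after seeing the data, a tolerance at each probe's level, the mean of each gene's probes, subtraction of neighbouring spots and the grid rows over 160.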

Additional observations from a re-analysis of the deposited data

How the results depend on the processing

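No paired analysis was possible because each group has 1 array. Across the alternatives, 63 of 66 counts over the receptor and coregulator probes stayed within 1.5 times of the values above, 71 of 72 medians moved by less than the tolerance, and 485 of 506 differences of single probes did too. One called direction reversed: the second Ncoa1 probe with CA39 went from 0.25 to -0.030 when the median of neighbouring spots was subtracted, a setting chosen after seeing the data. The count past the tolerance with AR7, 5 above, was 3 with the quantile-normalised processed signal and 3 in the grid rows over 160, a setting chosen after seeing the data that leaves fewer probes. The count past 2-fold with CA77, 1 above, was 0 when a probe had to be well above background on all arrays, which removes Rarb. The median of the probes with CA39, 0.18 above, was 0.34 with the deposited series table, where each array was scaled by its own median. The median over all probes was 0.06 there. Over the brightest probe of each gene the CA39 median was 0.07, below the 0.12 with AR7 and the 0.12 with CA77 found that way. Over the mean of each gene's probes it was 0.13, above 0.03 and 0.07. Scaling to the 75th percentile put the median over all probes with CA39 at -0.12 and that of the receptor and coregulator probes at 0.20. Leaving out an array was not possible with 1 per group. Signal over background limits Rarb, with 1 probe not well above background on 3 of the 4 arrays and the other on all 4.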

Other observations

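Among 13 receptors that pair with RXRs, 9 were well above background on every array and 1, Thrb, on none. The fatty acid receptor Ppard read 11.71 in untreated cells, 12.14 after AR7, 11.27 after CA39 and 11.79 after CA77, differences of 0.43, -0.44 and 0.08. The vitamin D receptor Vdr showed the opposite order, at -0.30 with AR7 and 0.28 with CA39. Thra, a thyroid hormone receptor, was lower with CA39 at -0.34 on its brighter and -0.33 on its dimmer probe. The brighter Thra probe stood at 0.04 with AR7 and -0.13 with CA77, and the dimmer one at -0.28 and -0.34. The oxysterol receptor Nr1h3 was the one gene of the list past 2-fold, with CA77, at 2.14 on the log2 scale, where 2.03% of all symbols were, and its other probe stood at 0.26, so the probes differed. The median over the 9 genes was -0.00 (AR7), 0.08 (CA39) and -0.13 (CA77). With AR7, 1 was higher and 1 lower past the tolerance, against 16.3% and 18.5% of all symbols, and with CA39 3 were higher and 3 lower, against 26.3% and 30.3%. With CA77, 0 were higher and 3 lower past the tolerance, against 18.9% higher and 21.6% lower over all symbols. Ppard, Vdr and Thra were chosen after their values were seen.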
